A study of Homo sapiens with 6 samples.

Results

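The MHC class I antigen presentation genes were examined in PC-3 tumors, where 9 genes were taken as members by their symbols: the heavy chains HLA-B, HLA-C, HLA-E and HLA-F, the light chain B2M, the peptide transporter subunits TAP1 and TAP2, the bridging chaperone TAPBP, and the transcriptional coactivator NLRC5. Each was found at 1 entry on the primary chromosomes of a table of 24000 gene entries, and all 9 were above the filter on low values. PC-3 is a human prostate carcinoma cell line that grows without androgen. The cells were grown as tumors in nude mice, which lack mature T cells because they have no thymus. RNA-seq was performed on 3 tumors from vehicle-treated mice and 3 tumors from mice given WCE, a standardized extract of the herb Wedelia chinensis, each with a labelled treatment duration of 10 weeks. The labels give no dose, sex or age of the mice, and all 6 tumors come from 1 cell line.

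Class I molecules display short peptides from inside the cell to CD8 T cells. Proteasomes cut proteins into peptides, the TAP1 and TAP2 heterodimer carries these into the endoplasmic reticulum, and TAPBP (tapasin) holds an empty class I molecule at the transporter until a peptide is bound. The molecule itself is a polymorphic heavy chain paired with β2-microglobulin, the product of B2M. NLRC5 assembles with the RFX and other factors on class I promoters, and interferons raise the transcription of most of these genes through transcription factors such as the IRF family. The expression of this pathway in a tumor is often low, which is a known route of escape from T cells.

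The promoters of these genes are known for shared interferon-response and NFκB elements, and the question of the study concerned NFκB and its cytokines, so the letters in front of the starts are shown. RefSeq promoter windows on build GRCh38.p14 were matched by symbol for 7 of the 9 genes, and none was matched for HLA-E and NLRC5. The 250 bases before the listed start are printed for 5 genes, read 5′ to 3′ on the strand of the gene, as the most variable heavy chain, the other classical heavy chain, the light chain and both transporter subunits. For TAP1 the more upstream of its 2 listed starts is shown. Capitals mark matches on either strand to an interferon-type element, which is GAAA, any 2 bases and GAAA again, or to a shorter form that opens with GAA. The shorter form was added after these promoters had been seen, and matches may overlap each other.
HLA-B, chr6:31357180-31357429, minus strand: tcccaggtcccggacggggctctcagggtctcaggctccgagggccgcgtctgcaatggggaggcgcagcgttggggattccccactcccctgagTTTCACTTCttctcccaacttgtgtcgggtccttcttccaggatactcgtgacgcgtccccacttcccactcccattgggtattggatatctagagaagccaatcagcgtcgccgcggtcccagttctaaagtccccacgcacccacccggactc
HLA-C, chr6:31272093-31272342, minus strand: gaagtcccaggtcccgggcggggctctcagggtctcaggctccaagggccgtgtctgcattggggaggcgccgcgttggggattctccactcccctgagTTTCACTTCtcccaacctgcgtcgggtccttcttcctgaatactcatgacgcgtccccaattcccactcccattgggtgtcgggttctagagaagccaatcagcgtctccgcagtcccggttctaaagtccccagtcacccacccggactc
B2M, chr15:44711267-44711516, plus strand: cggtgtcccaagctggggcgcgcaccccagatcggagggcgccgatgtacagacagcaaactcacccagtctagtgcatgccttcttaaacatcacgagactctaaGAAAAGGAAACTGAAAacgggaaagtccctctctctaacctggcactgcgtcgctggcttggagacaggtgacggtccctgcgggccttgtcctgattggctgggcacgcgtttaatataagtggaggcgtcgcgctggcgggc
TAP1, chr6:32853705-32853954, minus strand: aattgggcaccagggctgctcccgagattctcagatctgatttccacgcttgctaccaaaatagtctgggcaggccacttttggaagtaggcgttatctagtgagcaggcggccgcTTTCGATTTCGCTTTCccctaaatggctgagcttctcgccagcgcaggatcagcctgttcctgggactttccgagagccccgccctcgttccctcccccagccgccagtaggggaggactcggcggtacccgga
TAP2, chr6:32838740-32838989, minus strand: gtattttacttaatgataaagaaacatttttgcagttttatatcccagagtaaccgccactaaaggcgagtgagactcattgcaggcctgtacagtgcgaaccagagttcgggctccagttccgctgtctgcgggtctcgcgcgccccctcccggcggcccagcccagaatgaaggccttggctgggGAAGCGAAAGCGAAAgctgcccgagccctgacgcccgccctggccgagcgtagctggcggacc

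The full element was present in the windows of 5 of 7 genes, against 3.02% of the 35116 windows of the same length in the whole RefSeq table. With the added shorter form, which alone was found in HLA-B and HLA-C, it was 7 of 7 against 9.08%. In B2M and in TAP1 a pair of overlapping matches stood between 144 and 129 bases and between 134 and 119 bases before the start, respectively. The match in HLA-B lay 155 to 147 bases and that in HLA-C 151 to 143 bases before the start. TAPBP carried its matches within 20 bases of the start and HLA-F at 156 to 147 bases. A κB consensus match was found in 5 of 7 genes against 9.96% of all windows. CCAAT was found in 5 of 7 against 32% of all windows, and the X2 box core TGACGC in 3 of 7, namely HLA-B, HLA-C and TAP2, against 7.67%. A gene was counted if any of its windows held a match, whereas the shares are over windows. The more downstream of the 2 TAP1 windows held no match to any of these motifs. The windows of the proteasome genes PSMB8 and PSMB9, searched as well, held no interferon-type and no κB match. These matches describe letters only, and binding was not measured.

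Before the levels are given, 1 feature of the libraries has to be stated. Vehicle 3 and WCE 1 were nearly identical: over 1915 entries of mean FPKM of at least 50 their median absolute log2 difference was 0.0276, against 0.0950 to 0.247 in the other 14 pairs, and 0 entries were above 0 in WCE 1 while at 0 in vehicle 3. The relative depth of the 6 libraries ranged from 25.0% in WCE 1 to 100% in vehicle 3, and the absolute depth is unknown. Between vehicle 3 and WCE 1, no gene of the 9 was more than 0.154 apart in log2(FPKM + 1), so the comparison is also given without both. The carcinoma keratins KRT8, KRT18 and KRT19 were high in every tumor. Of all 6 carcinoma markers, 2 had an unadjusted limma p under 0.05, against 7.1% of all tested entries. They were EPCAM (log2 fold change -0.73) and CDH1 (-0.47), both lower in WCE tumors, each with a limma adjusted p of 0.623. VIM (0.41) did not pass, and the keratins lay between -0.01 and 0.10. The prostate genes KLK2 and KLK3 were listed at 0. Among immune markers, 9 of 9 T and NK cell markers and 9 of 11 leukocyte and macrophage markers stayed below 1 FPKM. The summed leukocyte markers ranged from 26.8 to 45.8 FPKM in vehicle and from 41.7 to 46.1 FPKM in WCE tumors, most of it CD68. TYROBP, CD3E and CD3G were listed at 0 in every tumor. The listed genes are human, whereas the host cells in these tumors are mouse cells. Values of these markers therefore do not measure how many host cells were present. How mouse reads were treated is not stated, and the study detected myeloid cells of the host in PC-3 tumors by flow cytometry.

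WCE-treated and vehicle-treated tumors did not differ detectably in any of the 9 genes. By limma on log2(FPKM + 1), 0 of 9 passed an unadjusted p of 0.05 where 7.1% of the 13287 tested entries did, and 0 of 9 passed the adjusted threshold where 0.00753% did. The groups were separated in 0 of 9 genes, against 12.8% of all entries. The log2 fold change was above 0 in 6 genes and below 0 in 3, with a median of 0.05, while the median of all tested entries was -0.01. The median of the 9 ranged from -0.31 without vehicle 1 to 0.31 without WCE 2, and was -0.17 without WCE 1, 0.25 without vehicle 2, 0.26 without vehicle 3 and 0.02 without WCE 3. By mean FPKM, 4 genes were higher and 5 lower in WCE tumors, since HLA-B and HLA-C were lower on that scale. The spread between tumors was far larger: vehicle 1 was the lowest tumor for 8 of the 9 genes, and vehicle 1 and WCE 2 were the lowest pair for 8 of 9. That pattern, noted after the values had been seen, held for 6.69% of all tested entries, and vehicle 1 was the lowest tumor for 24.1% of them. The relative depth of these libraries was 64.8% for vehicle 1 and 85.2% for WCE 2. Among the 6 carcinoma markers, vehicle 1 and WCE 2 were the lowest pair in 2, KRT8 and KRT19, and vehicle 1 was the lowest tumor for 4. Some human markers of other cell types were low in vehicle 1 and WCE 2 too, but others were not. Vehicle 1 and WCE 2 were the lowest pair in 1 of 2 tested leukocyte and macrophage markers. They were so in 2 of 2 dendritic and B cell, 1 of 3 endothelial and 1 of 5 fibroblast and pericyte markers. LAPTM5 of leukocytes was 0.868 FPKM in vehicle 1 and 1.06 FPKM in WCE 2, against 1.32 to 4.23 FPKM in the other tumors. PTPRC (0.106 FPKM) and PECAM1 (0.860 FPKM) were lowest in vehicle 1, and COL1A1 was 10.5 FPKM in WCE 2, against 29.5 to 45.7 FPKM in the others. The summed endothelial markers were 2.69 FPKM in vehicle 1 and 6.92 FPKM in WCE 2, against 5.54 to 10.4 FPKM in the others. CD68 was 25.3 FPKM in vehicle 1, its lowest tumor, and 39.6 FPKM in WCE 2. The part of depth or of other cells in the pattern was not tested.

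**Figure D1:**
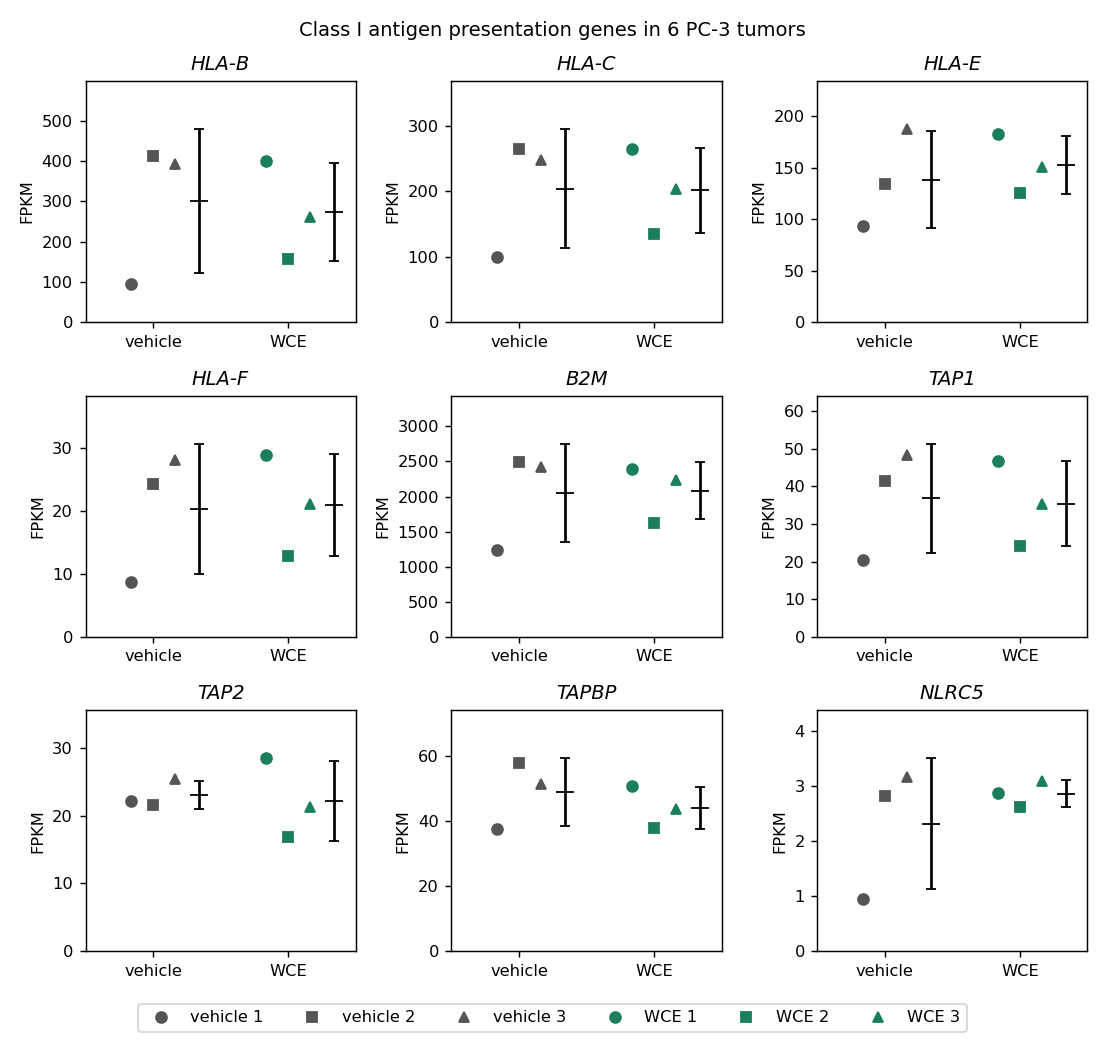
FPKM of each of the 9 genes (vertical axes, from 0) in vehicle (grey) and WCE (green) tumors, 1 point per tumor with its replicate number as the marker, and the group mean ± SD (n = 3) as a bar beside the points. The labels do not name same-numbered tumors as pairs. Vehicle 1 is the lowest point in 8 of the 9 panels, with TAP2 as the exception, and the groups overlap in all 9.

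Among the heavy chains, HLA-B, one of the classical molecules that present peptides to CD8 T cells, varied the most. It was 93.9, 414 and 393.7 FPKM in vehicle 1, 2 and 3, and 401.5, 157.9 and 262.4 FPKM in WCE 1, 2 and 3. One vehicle tumor lay below all WCE tumors, while another lay above them all, and the groups overlapped fully. The means were 300.5 ± 179.2 FPKM in vehicle and 273.9 ± 122.2 FPKM in WCE tumors (SD, n = 3). The log2 fold change was 0.04 ± 0.59 (SE, 95% interval -1.33 to 1.41), with a limma adjusted p of 0.987 and an exact permutation p of 0.9, where the smallest p that 3 against 3 allows is 0.1. The highest tumor held 4.41 times the level of the lowest. The entry lies at chr6:31321649-31324989 on the coordinates of the table.

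HLA-C, the other classical heavy chain of the set and also a ligand of killer cell receptors, had the same order of tumors with a narrower range. Its levels were 99.4, 264.9 and 247.9 FPKM in vehicle and 264.4, 135.4 and 204.3 FPKM in WCE tumors 1, 2 and 3. Vehicle 1 and WCE 2 were low and the other 4 tumors lay between 204.3 and 264.9 FPKM. WCE over vehicle gave a log2 fold change of 0.05 ± 0.40 (SE, 95% interval -0.87 to 0.98, limma adjusted p = 0.971). The entry lies at chr6:31236526-31239913.

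HLA-E presents leader peptides of other class I chains to the NKG2 receptors of NK cells. It was 93.8, 133.8 and 187.5 FPKM in vehicle and 182.5, 125.7 and 150.5 FPKM in WCE tumors 1, 2 and 3. Vehicle 1 was again the lowest, but vehicle 2 was close to WCE 2 here rather than to vehicle 3. Between the groups, the log2 fold change was 0.18 ± 0.25 (SE, 95% interval -0.40 to 0.77, limma adjusted p = 0.819). The entry lies at chr6:30457183-30461982.

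HLA-F, a nonclassical heavy chain that is largely kept inside the cell, was the least abundant of the 4. Its levels were 8.64, 24.3 and 28.2 FPKM in vehicle and 28.98, 12.85 and 21.15 FPKM in WCE tumors 1, 2 and 3. The lowest and the highest tumor came from different groups and differed 3.35 times. The log2 fold change was 0.12 ± 0.44 (SE, 95% interval -0.91 to 1.15, limma adjusted p = 0.947). The entry at chr6:29691117-29716826 shares its locus with the antisense gene HLA-F-AS1, and since strand use in the counting is not given in the sources used here, reads of this pair may not be separated.

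Heavy chains are near copies of each other in part of their sequence, so reads may be assigned to the wrong one. In GENCODE v29 reference transcripts, 2.54% of the 50-base stretches of HLA-B, 6.71% of HLA-C, 5.13% of HLA-E and 1.7% of HLA-F also occurred in transcripts of other genes, against 0% for B2M and NLRC5. The share was 1.07% for TAP1, 5.99% for TAPBP and 35.8% for TAP2, where it lay with the overlapping gene model AL669918.1. No other deposited entry had the listed locus of TAP2, so whether this share affected the TAP2 value is unknown. The alleles of PC-3 may differ from the reference, and how shared reads were treated is not given in the sources used here. The ratio of HLA-B to HLA-C was 0.945, 1.56 and 1.59 in vehicle and 1.52, 1.17 and 1.28 in WCE tumors 1, 2 and 3, so it was lowest in both tumors in which both genes were low. The ratio of HLA-B to HLA-E was 1.00, 3.09 and 2.10 in vehicle and 2.20, 1.26 and 1.74 in WCE tumors 1, 2 and 3, which spans a wider range than the former ratio.

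B2M, whose product stabilizes every class I heavy chain at the cell surface, was the most abundant of the 9 genes. It was 1243, 2492 and 2419 FPKM in vehicle and 2391, 1622 and 2243 FPKM in WCE tumors 1, 2 and 3. Vehicle 1 and WCE 2 were the low tumors, and the other 4 lay between 2243 and 2492 FPKM. The means were 2051 ± 701 FPKM in vehicle and 2085 ± 408 FPKM in WCE tumors (SD, n = 3), and the log2 fold change was 0.07 ± 0.29 (SE, 95% interval -0.60 to 0.74, limma adjusted p = 0.952). The entry lies at chr15:45003685-45010357, away from the MHC region on chromosome 6.

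Per length, B2M exceeded the sum of the 4 heavy chains in each tumor. That sum was 295.7, 837 and 857.3 FPKM in vehicle and 877.4, 431.9 and 638.5 FPKM in WCE tumors 1, 2 and 3, lowest in vehicle 1 and WCE 2. B2M was 4.20, 2.98 and 2.82 times the sum in vehicle and 2.73, 3.76 and 3.51 times the sum in WCE tumors 1, 2 and 3. The ratio was thus highest in vehicle 1, and heavy chain RNA differed more between tumors than light chain RNA did. In bulk tissue fewer cells that express a gene and less RNA per cell cannot be told apart.

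**Figure D2:**
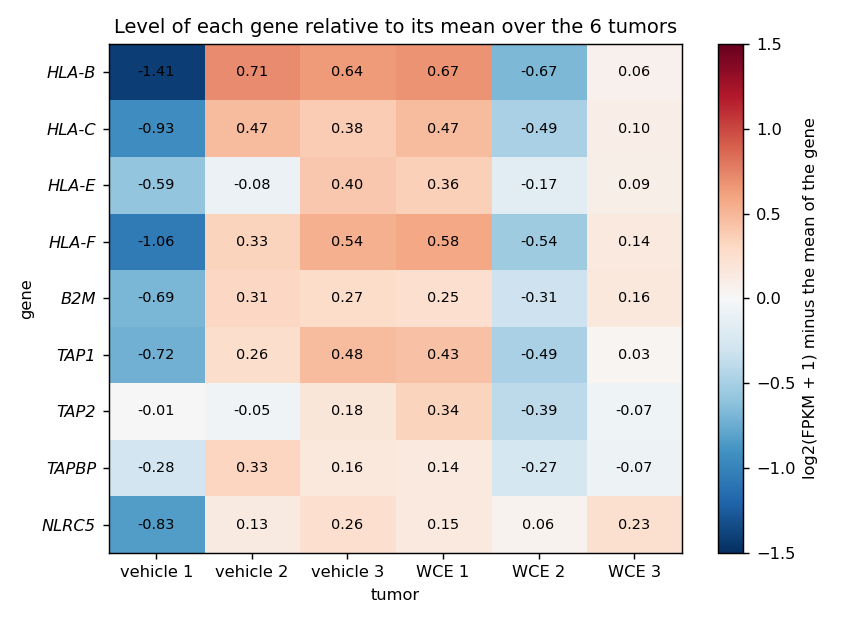
Level of each of the 9 genes (rows) in each tumor (columns), as log2(FPKM + 1) minus the mean of that gene over the 6 tumors, with the value printed in each cell. Vehicle 1 is below the mean in 9 of 9 genes and WCE 2 in 8 of 9, and HLA-B spans the widest range, from -1.41 to 0.71.

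The transporter subunits behaved differently from each other. TAP1 was 20.5, 41.5 and 48.4 FPKM in vehicle and 46.9, 24.3 and 35.2 FPKM in WCE tumors 1, 2 and 3. Vehicle 1 and WCE 2 were low, as for the heavy chains. Its log2 fold change was -0.02 ± 0.34 (SE, 95% interval -0.81 to 0.78, limma adjusted p = 0.991). The entry at chr6:32808494-32821748 shares its listed locus with PSMB8 and an uncharacterized RNA gene.

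TAP2, the partner of TAP1 in the transporter, was the exception among the 9. It was 22.2, 21.5 and 25.5 FPKM in vehicle and 28.4, 16.8 and 21.2 FPKM in WCE tumors 1, 2 and 3. Vehicle 1 lay between the other vehicle tumors, and WCE 2 was the lowest tumor and WCE 1 the highest. For the groups the log2 fold change was -0.08 ± 0.18 (SE, 95% interval -0.50 to 0.34, limma adjusted p = 0.898). TAP2 was also the 1 gene of the 9 whose range was narrower over vehicle tumors, at 0.23 on the log2 scale, than over WCE tumors, at 0.72. The ratio of TAP1 to TAP2 was 0.925, 1.93 and 1.90 in vehicle and 1.65, 1.44 and 1.66 in WCE tumors 1, 2 and 3, and it fell below 1 in vehicle 1 alone. The entry lies at chr6:32789610-32806547.

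TAPBP was 37.6, 57.9 and 51.4 FPKM in vehicle and 51.0, 38.1 and 43.7 FPKM in WCE tumors 1, 2 and 3. Vehicle 1 and WCE 2 were within 1 FPKM of each other and lowest. Over the 6 tumors the highest was 1.54 times the lowest, the narrowest such ratio of the 9 genes. Its log2 fold change was -0.13 ± 0.18 (SE, 95% interval -0.55 to 0.28, limma adjusted p = 0.817). Its entry at chr6:33267472-33285719 is joined with the neighbouring gene ZBTB22, whose reads are part of the value.

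NLRC5, the coactivator that drives class I transcription, was the least abundant of the 9 genes. It was 0.957, 2.82 and 3.17 FPKM in vehicle and 2.87, 2.63 and 3.10 FPKM in WCE tumors 1, 2 and 3. Vehicle 1 stood apart at under 1 FPKM, and the other 5 tumors lay between 2.63 and 3.17 FPKM. WCE 2, which was low in the heavy chains and in TAP1, was only slightly below the other WCE tumors here. The log2 fold change of 0.30 ± 0.27 (SE, 95% interval -0.34 to 0.93, limma adjusted p = 0.729) was the largest of the 9. The entry lies at chr16:57050986-57117436.

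**Figure D3:**
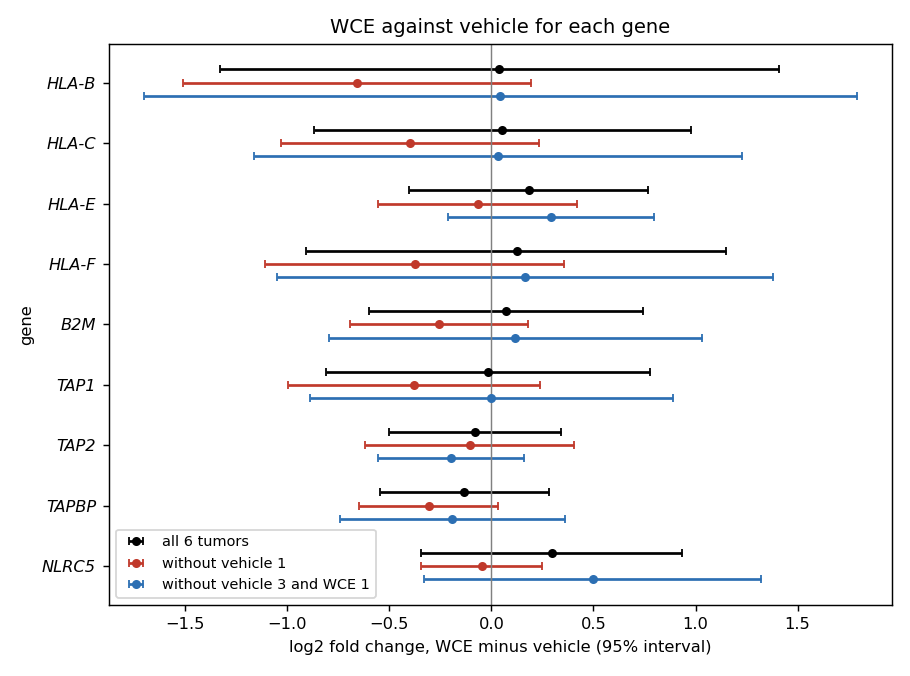
Log2 fold change of WCE over vehicle for each gene on the log2(FPKM + 1) scale, with its 95% limma interval, from all 6 tumors (black), without vehicle 1 (red) and without the nearly identical vehicle 3 and WCE 1 (blue). Every interval includes 0, and without vehicle 1 all 9 values lie below 0.

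Leaving out vehicle 1 turned the values of HLA-B, HLA-C, HLA-E, HLA-F, B2M and NLRC5 from positive to negative, so that all 9 were negative, with an unadjusted limma p between 0.0702 and 0.749. HLA-B was then -0.66 (95% interval -1.51 to 0.19, adjusted p = 0.792). Its mean over vehicle 2 and vehicle 3 was 403.8 FPKM, above each of the 3 WCE tumors. Leaving out vehicle 3 and WCE 1 together left 3 of 9 values negative, and HLA-B at 0.04 (95% interval -1.70 to 1.79, adjusted p = 0.979). Without WCE 1 alone, HLA-B (-0.29), HLA-C (-0.17), HLA-F (-0.14) and B2M (-0.04) were negative too, so the direction for these 4 genes rested on single tumors in each group.

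The range over vehicle tumors was wider than that over WCE tumors in 8 of 9 genes, against 57.2% of all tested entries. The size of each fold change was below the vehicle range in 9 of 9, as it was in 84.1% of all entries. The median vehicle range was 1.09 on the log2 scale for the 9 genes, against 0.307 for all tested entries. For HLA-B it was 2.13, a range that 0.497% of all tested entries reached. For HLA-F it was 1.60 (1.08% of entries), for HLA-C 1.40 (1.44%) and for TAP1 1.20 (2.07%). TAP2 was ordinary by this measure, with 65.6% of entries at its range or above. Since the libraries differ in depth, it was also measured among the 1915 entries of mean FPKM of at least 50, where 0.522% reached the range of HLA-B.

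**Figure D4:**
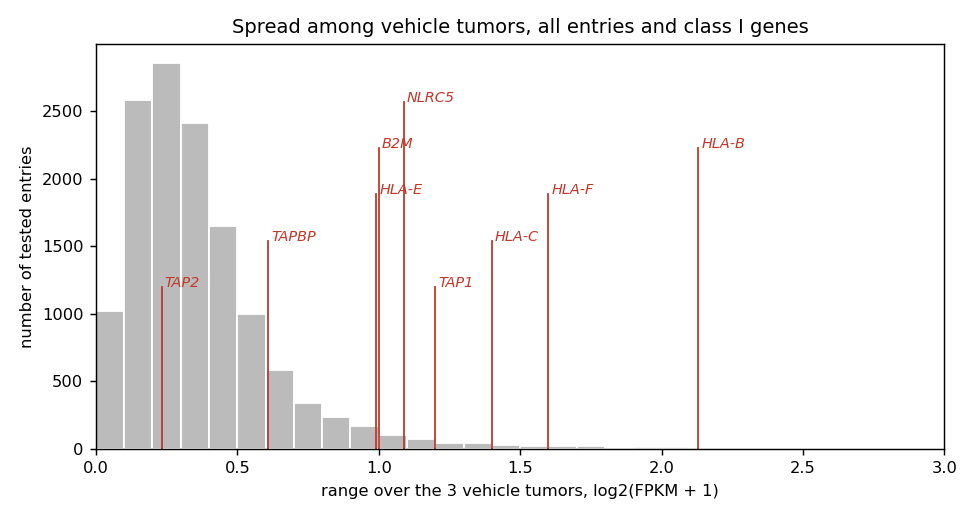
Number of tested entries (vertical axis) by their range over the 3 vehicle tumors in log2(FPKM + 1) (horizontal axis, bins of 0.1), with the 9 genes marked by red lines whose heights carry no value. 7 of the 9 genes are among the 5% of entries with the widest range, and 42 entries beyond 3 are not drawn.

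Genes with the most similar profiles over the 6 tumors were sought among entries of mean FPKM of at least 5, by the root-mean-square difference of log2(FPKM + 1) after each gene was centred. For HLA-B they were XAF1 (0.08), an interferon-induced inhibitor of XIAP, CP (0.14), the copper carrier ceruloplasmin, and TRIM22 (0.14), an interferon-induced ubiquitin ligase. XAF1 was 1.23, 7.40 and 8.08 FPKM in vehicle and 8.84, 2.57 and 5.07 FPKM in WCE tumors 1, 2 and 3. For TAP1 they were PRIC285 (0.07), TMEM27 (0.08) and TNFSF10 (0.08), the death ligand TRAIL. For NLRC5 they were C19orf66 (0.07), STAT2 (0.07) and CLU (0.08), where STAT2 is a transcription factor of type I interferon signaling. STAT2 was 19.7, 34.9 and 38.3 FPKM in vehicle and 38.5, 34.9 and 36.9 FPKM in WCE tumors 1, 2 and 3. Among the 9 genes themselves the most similar pair was HLA-C and HLA-F (0.11) and the least similar was HLA-B and TAP2 (0.71).

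The steps before the transporter were examined next. The immunoproteasome and its PA28 activator replace or cap the constitutive proteasome, and 0 of 5 genes passed an unadjusted p of 0.05 in either direction, with a median log2 fold change of -0.11. PSMB8, a catalytic subunit encoded beside TAP1, was 30.2, 63.8 and 65.3 FPKM in vehicle and 64.2, 34.3 and 38.8 FPKM in WCE tumors 1, 2 and 3. PSMB9, the catalytic subunit encoded on the other side of TAP1, was 5.12, 18.5 and 17.5 FPKM in vehicle and 15.9, 7.84 and 10.6 FPKM in WCE tumors 1, 2 and 3. Vehicle 1 and WCE 2 were the lowest pair of tumors in 5 of the 5 genes. The activator subunits PSME2 and PSME1 were the most abundant, with means of 241.1 and 225.1 FPKM. Among cytosolic peptidases, 0 of 7 genes passed and 0 of 7 had that pair lowest, with NRD1 and NPEPPS most abundant at means of 62.7 and 62.0 FPKM.

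In the loading complex and the chaperones around it, 0 of 10 genes passed, with a median of -0.01. CALR (calreticulin), which holds the glycan of the heavy chain, was 1364, 998.2 and 1290 FPKM in vehicle and 1288, 1081 and 1162 FPKM in WCE tumors 1, 2 and 3. It was highest in vehicle 1, the tumor in which the heavy chains were lowest. PDIA3 (ERp57), the oxidoreductase bound to tapasin, was 451.3, 446.2 and 441.9 FPKM in vehicle and 435.5, 341.3 and 346 FPKM in WCE tumors 1, 2 and 3. All 3 WCE tumors lay below the vehicle tumors, with a log2 fold change of -0.26 and a limma adjusted p of 0.623 (unadjusted p = 0.0626). It passed unadjusted without WCE 1 (-0.38) and without vehicle 3 and WCE 1 together, but not without any other single tumor (-0.27 to -0.20). With array weights, where 3201 of all entries passed, PDIA3 passed too (-0.34, limma unadjusted p = 0.00595, adjusted p = 0.126). Groups did not overlap in 3 of the 10 genes, against 12.8% of all entries. They were PDIA3, UGGT1 (-0.11) and, in the other direction, MOGS (0.18). The vehicle 1 and WCE 2 pattern was present in 1 of the 10.

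Of the promoter-bound factors and interferon signaling genes, 21 of 22 were tested, 2 passed the unadjusted threshold as higher in WCE tumors and 0 as lower, with a median of 0.07. RFX5, the DNA-binding subunit of the RFX complex on MHC promoters, was 20.4, 20.5 and 20.9 FPKM in vehicle and 23.0, 29.5 and 25.2 FPKM in WCE tumors 1, 2 and 3. The groups did not overlap, and the log2 fold change was 0.31 (limma unadjusted p = 0.0232, adjusted p = 0.623, exact permutation p = 0.1). TYK2, a kinase of the interferon receptors, was 24.1, 23.2 and 31.0 FPKM in vehicle and 31.8, 32.6 and 32.4 FPKM in WCE tumors 1, 2 and 3, with a log2 fold change of 0.31 (limma unadjusted p = 0.038, adjusted p = 0.623, exact permutation p = 0.1). Vehicle 3 lay close to the WCE tumors for TYK2. Without vehicle 3 and WCE 1 both genes kept their direction, at 0.40 for RFX5 (limma adjusted p = 0.207) and 0.44 for TYK2 (adjusted p = 0.171). When 1 tumor was left out, the unadjusted call was lost for RFX5 without vehicle 2, WCE 2 or WCE 3, and for TYK2 without any tumor but vehicle 3. The share passing, 2 of 21, is to be read against 7.1% of all entries. Groups did not overlap in 3 of the 21, against 12.8% of all entries. They were RFX5, TYK2 and, in the other direction, JAK2 (-0.16).

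Other class I and class I-like molecules included 23 entries, of which 12 were tested. MICB and RAET1L passed the unadjusted threshold, 2 of 12 against 7.1% of all entries, and both were lower in WCE tumors. Each encodes a ligand of the NK cell receptor NKG2D, but the other tested ligands of that receptor in the list did not pass, with log2 fold changes of 0.06 for MICA, 0.15 for ULBP2, 0.25 for RAET1G, -0.06 for ULBP1 and -0.10 for ULBP3. MICB was 10.7, 8.96 and 8.57 FPKM in vehicle and 8.10, 6.34 and 7.29 FPKM in WCE tumors 1, 2 and 3 (log2 fold change -0.34, limma unadjusted p = 0.0305, adjusted p = 0.623, exact permutation p = 0.1). RAET1L was 1.83, 1.15 and 1.26 FPKM in vehicle and 0.629, 0.832 and 0.887 FPKM in WCE tumors 1, 2 and 3 (log2 fold change -0.43, limma unadjusted p = 0.0247, adjusted p = 0.623, exact permutation p = 0.1). The groups did not overlap for either gene, 2 of 12 against 12.8% of all entries, and neither passed the adjusted threshold. Without vehicle 3 and WCE 1 the values were -0.47 for MICB (limma adjusted p = 0.208) and -0.41 for RAET1L (adjusted p = 0.32), where RAET1L no longer passed unadjusted. The unadjusted call was also lost for MICB without vehicle 1, WCE 2 or WCE 3, and for RAET1L without vehicle 1 or WCE 1 and with the replicate block (limma adjusted p = 0.62). The median over the 12 was -0.01.

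Interferon-stimulated genes were lowest in the same tumors as the class I genes. Of 26 genes, 4 of which stand in the lists above, 0 passed an unadjusted p of 0.05 and the median log2 fold change was -0.15. With 1 tumor left out this median ranged from -0.54 without vehicle 1 to 0.13 without WCE 2, and it was also above 0 without vehicle 2 (0.06) and without vehicle 3 (0.02). Vehicle 1 and WCE 2 were the lowest pair of tumors in 25 of the 26. The most abundant, IFI6, was 350, 997 and 791.5 FPKM in vehicle and 831.1, 394.4 and 710.8 FPKM in WCE tumors 1, 2 and 3. ISG15, a ubiquitin-like modifier, was 429.7, 871.5 and 651.2 FPKM in vehicle and 642.7, 262.5 and 502.7 FPKM in WCE tumors 1, 2 and 3. WCE 2 was the lowest tumor for ISG15 and vehicle 1 the lowest for IFI6. The part of interferon signaling in the spread of the class I genes was not tested.

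MHC class II genes, which present peptides to CD4 T cells and are usually confined to immune cells, were low. Of the 12 listed, 6 stayed below 1 FPKM in every tumor. Those above the filter had means from 0.58 FPKM (HLA-DQB1) to 4.33 FPKM (HLA-DMA). Of 12 genes 5 were tested, 0 passed, and the median log2 fold change was 0.09. CD74, the invariant chain, was 0.392, 1.23 and 6.14 FPKM in vehicle and 5.88, 1.06 and 6.45 FPKM in WCE tumors 1, 2 and 3. In 4 of the 5 tested genes vehicle 1 and WCE 2 were the lowest pair. WCE 3 was the highest tumor for CD74, whereas it was in the middle for HLA-B. HLA-DMA, which exchanges peptides on class II molecules, was 5.01, 2.69 and 5.82 FPKM in vehicle and 7.28, 1.90 and 3.29 FPKM in WCE tumors 1, 2 and 3, and vehicle 1 was not low for it.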

How the data were processed

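RNA-seq was performed on 6 PC-3 tumors, 3 vehicle and 3 WCE, from TruSeq Stranded mRNA libraries. The authors deposited FPKM values per gene entry in 1 table. The submitters' processing notes name TopHat2 2.0.13, Cufflinks and the builds hg19 and mm10, without saying how mouse reads were treated. Coordinates are those of the table, counted from 1. The table also lists 1141 entries on alternative haplotype sequences, 41 of them of 7 members and all at 0 in every tumor, which were left out. No counts or depths were given, so no counting intervals are stated, and relative depth was taken from the commonest ratio of FPKM values between tumors.

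Entries averaging 0.5 FPKM or more over the 6 tumors (13287) were put on the log2(FPKM + 1) scale, and the groups were tested in limma 3.58.1 under R 4.3.3 (mean-variance trend, two-sided, Benjamini-Hochberg over all entries, threshold 0.05). Fold changes on this scale understate those of low genes. Exact permutation tests were two-sided. Adjusted p-values in the text are over all entries. Whether tumors came from separate mice is not stated in the labels, so p-values measure the spread between these samples.

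The members and lists were chosen with earlier results of these data known. All 9 members are named. From each list, genes under an unadjusted p of 0.05 are named (at most 4, the largest changes), or else the 2 most abundant, with PSMB8 and PSMB9 always. For HLA-B, TAP1 and NLRC5 the 3 most similar profiles are named. Keratins, EPCAM, CDH1, VIM, KLK2, KLK3, CD68, TYROBP, CD3E, CD3G, LAPTM5, PTPRC, PECAM1 and COL1A1 are named as markers. MICA, ULBP1, ULBP2, ULBP3, RAET1G, UGGT1, MOGS and JAK2 are named beside other named genes. All of these were picked after their values were seen. The cytosolic peptidase gene NRDC is listed as NRD1. Motifs were searched in RefSeq windows (GRCh38.p14), and shared stretches in GENCODE v29. Python 3.11.15, numpy 2.4.6, pandas 2.3.3 and matplotlib 3.10.9 were used. The 17 alternatives were the pseudocount, filter, scaling, trend, tumor weights, replicate block, haplotype entries and tumors left out.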

Additional observations from a re-analysis of the deposited data

How the results depend on the processing

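The count of 0 members under an unadjusted p of 0.05 held in all 17 alternatives, and the lowest unadjusted p of a member in any of them was 0.0676 (TAPBP with array weights, adjusted p = 0.236, limma). NLRC5 has no value at a mean FPKM of at least 5. The count over all entries moved from 944 to 3201 with array weights and to 2459 without both vehicle 3 and WCE 1, and ranged from 228 to 2035 when 1 tumor was left out (228 without WCE 3, 244 without WCE 2, 378 without vehicle 2, 438 without vehicle 1, 1769 without vehicle 3 and 2035 without WCE 1). The labels name no pairing of same-numbered tumors. Correlations of their deviations from the group means were -0.241, 0.16 and -0.0931, with a mean of -0.0583, against 0.0278 for different numbers. Deviations within a group of 3 depend on each other, so these values cannot exclude a pairing. With the replicate block 0 members and 1049 of all entries passed. The block cannot change a fold change in this balanced design, and of the named genes RAET1L alone lost its unadjusted call under it. The members' median ranged from -0.307 to 0.312 with 1 tumor left out and was -0.148 with array weights. The cause of these movements was not tested.

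Directions reversed as follows, in log2 fold change and with no member past the threshold. TAP1 was 0.00354 with upper-quartile scaling and 0.00374 with quantile normalization. With array weights HLA-B was -0.412, HLA-C -0.223, HLA-F -0.148 and B2M -0.0758. Without vehicle 1 HLA-B was -0.659, HLA-C -0.399, HLA-E -0.0673, HLA-F -0.375, B2M -0.255 and NLRC5 -0.0477. Without WCE 1 HLA-B was -0.287, HLA-C -0.168, HLA-F -0.135 and B2M -0.0369. TAP1 was 0.113 without vehicle 2, 0.221 without vehicle 3 and 0.226 without WCE 2, where TAP2 was 0.0924. With 1 tumor left out at a time, the values ranged from -0.659 to 0.406 for HLA-B, -0.399 to 0.312 for HLA-C, -0.0673 to 0.429 for HLA-E, -0.375 to 0.424 for HLA-F, -0.255 to 0.246 for B2M, -0.379 to 0.226 for TAP1, -0.269 to 0.0924 for TAP2 and -0.0477 to 0.497 for NLRC5. TAPBP was below 0 in all 17 alternatives. Depth limits cannot be stated from FPKM values.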
